A study of Mus musculus with 6 samples.

Results

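The enzymes of glutathione and thiol-based antioxidant defence were examined as a set in the corneal epithelium of mice lacking Rela. Genes were taken by symbol: the glutathione S-transferases of the alpha, kappa, mu, omega, pi, theta and zeta classes, the glutathione peroxidases, peroxiredoxins, superoxide dismutases and thioredoxin reductases, together with Gclc, Gclm, Gss, Gsr, Cat, Txn1, Txn2, Nqo1, Hmox1, Srxn1, Nfe2l2 and Keap1. This gave 53 of the 17866 genes measured. The rule used no expression value. Corneal epithelium of C57BL/6 mice, 6 months old by the labels, gave 6 bulk RNA-seq libraries, 3 of them labelled wild type (WT) and 3 Rela-/- (KO), with a separate biological sample for each. As the study describes them, KO mice were Krt14-Cre; Rela f/f animals, in which Cre removes floxed Rela from K14-expressing cells, and the epithelial layer was separated before RNA extraction. Krt14-Cre is also active in limbus, conjunctiva, meibomian gland, skin and oral mucosa, so deletion was not restricted to the cornea. Whether the WT mice carried floxed alleles or Cre is not given in the labels.

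Glutathione is made by joining glutamate to cysteine and then to glycine, and it serves peroxidases as the electron donor that turns peroxides into water or alcohols and serves transferases as the group they attach to reactive compounds. Peroxiredoxins and thioredoxin form a parallel thiol system. Many genes of both systems are classical targets of the transcription factor Nrf2 (gene Nfe2l2), which Keap1 otherwise marks for degradation and which binds the antioxidant response element. The cornea is an exposed, light-receiving surface in which such enzymes are abundant.

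Of the 53 genes, 47 had enough counts to be tested. In KO, 25 were higher and 11 lower at an adjusted p of 0.05 (edgeR quasi-likelihood test with genotype as the only term, Benjamini-Hochberg over the 13305 genes tested), and 11 did not pass. The shares were 53.2% higher and 23.4% lower, against a background of 31.8% higher and 30.2% lower over all genes tested. The study called a gene changed when its adjusted p was 0.001 or less and its change at least 2-fold, and by this study threshold 14 were higher (29.8%, background 11.6%) and 4 lower (8.51%, background 8.24%). The 14 were Gpx2, Hmox1, Gstm6, Gsta1, Gstm1, Gstp2, Nfe2l2, Gclm, Gstp1, Prdx4, Gstm5, Txn1, Srxn1 and Prdx1. The 4 were Gstt2, Gstt1, Gsta3 and Gstt3. Values did not overlap between the genotypes for 36 of the 47 (76.6%), against 68.7% of all genes tested. The median log2 fold change, KO over WT, was 0.50 for the set and 0.01 for all genes tested.

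Filtering and gene length bear on those shares. A total of 43 of the 47 reached the count minimum in all 6 libraries, 21 of them higher in KO. The other 4 (Gpx2, Gstm6, Gstm7 and Gstp3) reached it in every KO library but not in every WT library, so they could enter the test only by being higher in KO. The genes of the set were also short, with a median effective length of 1287 bases against 2854 bases for all genes tested, and short genes as a whole were higher in KO. The median log2 fold change over all genes tested was 0.49 for lengths of 500 to 1000 bases (815 genes), 0.16 for 1000 to 2000 bases (3004 genes) and -0.04 for 2000 to 4000 bases (5461 genes). In the same bins the antioxidant genes had medians of 0.63 (13 genes), 0.50 (23 genes) and 0.34 (11 genes). With a correction for length, 20 genes of the set were higher, while of all 13305 genes tested 4154 were higher and 3926 lower. The lower genes of the set kept their call, and Gsto1, Prdx5 and Sod1 were then also called lower. The share of lower genes in the set was thus no longer smaller than that of all genes tested. Individual calls that the correction ended are given with the genes.

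**Figure D1:**
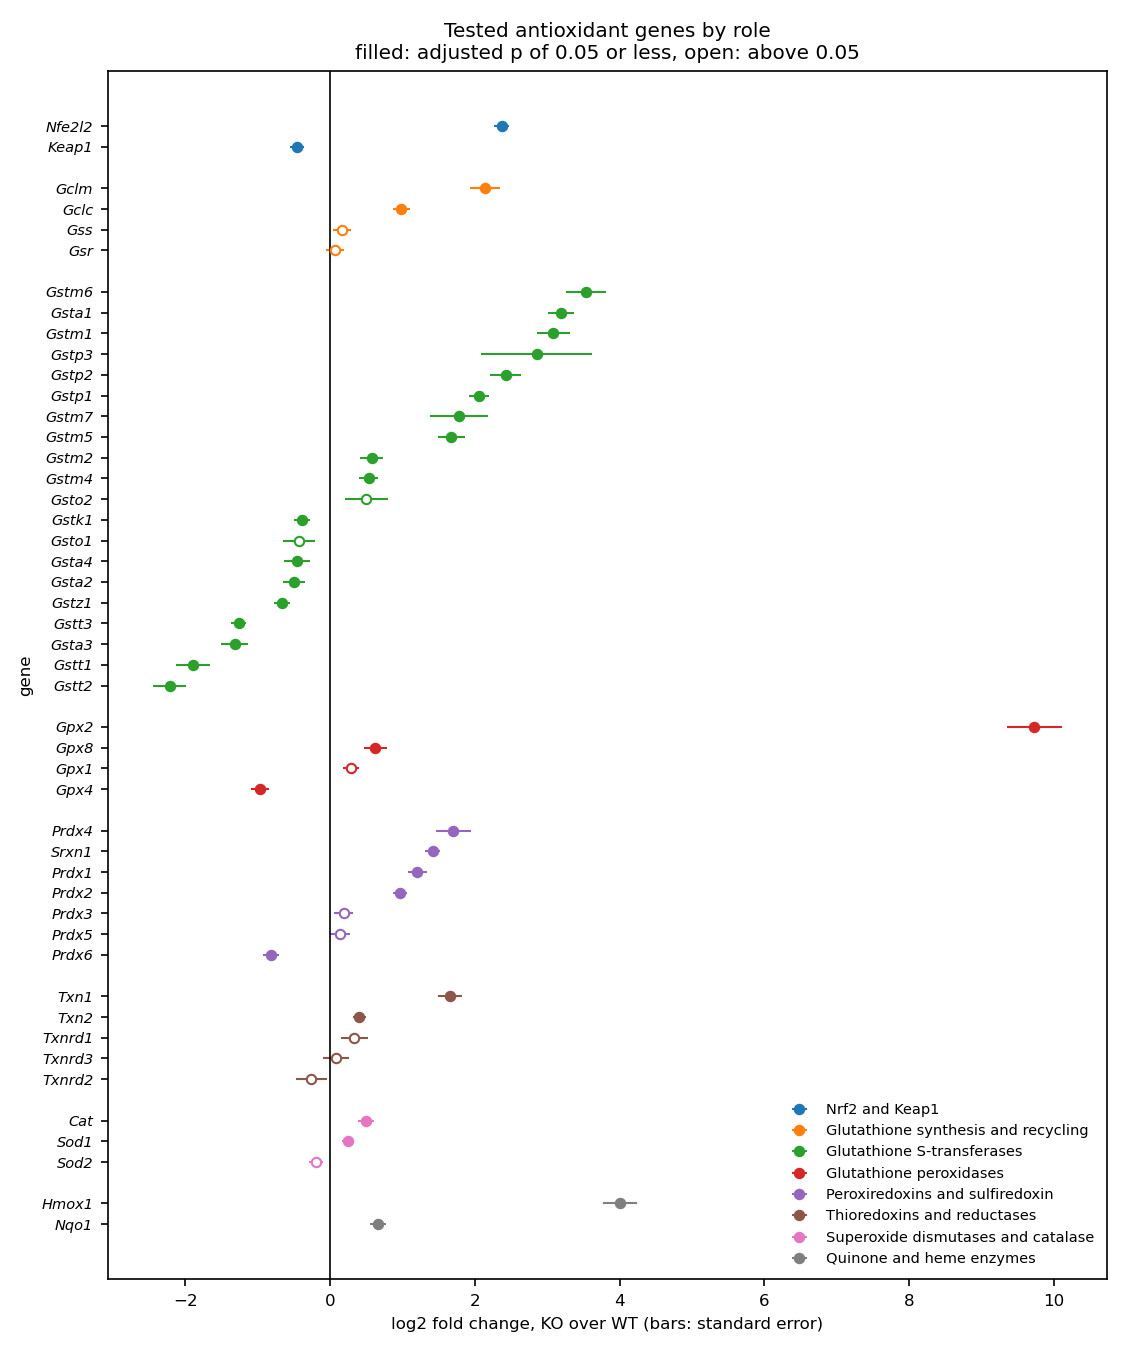
Log2 fold change, KO over WT (x axis), of the 47 tested genes (y axis, grouped by role and coloured accordingly), with standard errors as bars. Filled points passed an adjusted p of 0.05 (edgeR), and open points did not. Gpx2 lies far to the right at 9.73, and the glutathione S-transferases spread on both sides of 0, from -2.22 to 3.54.

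The libraries held between 20158404 and 20880347 estimated counts each. Rela, the targeted gene, had 1871, 1844 and 1855 counts in WT against 318, 223 and 313 in KO (log2 fold change -2.60, SE 0.141, edgeR adjusted p = 2.74e-06). The KO epithelium also differed in cell-type markers. At this age the study found, by staining, K1 in place of K12 and loss of Pax6 in KO, and it described the new epithelium as epidermal-like. The summed level of 5 corneal epithelial markers (Krt12, Pax6, Aldh3a1, Upk1b and Krt5), in counts scaled by TMM factors to a library total of 1000000 (CPM), was 85514 to 88793 in WT and 20755 to 23404 in KO, and 5 of 5 were lower. They were still detected in every KO library. All 5 epidermal markers (Krt1, Krt10, Lor, Flg and Krtdap) were higher, with a summed level of 15.1 to 20.3 CPM in WT and 11555 to 23943 CPM in KO, and so were the 5 conjunctival markers (Krt13, Krt4, Krt19, Muc5ac and Muc5b), at 1873 to 2899 CPM and 52172 to 66880 CPM. Muc5ac had 0 counts in every WT library, so it could enter the test only by being higher in KO. Of the stromal and vessel markers, 4 of 4 tested (Col1a1, Col1a2, Vim and Pecam1) were higher. The summed level was 0.687 to 2.84 CPM in WT and 11.3 to 18.5 CPM in KO, and Lum had 0 counts in every WT library. In WT replicate 1 these markers summed to 15 counts, against a minimum of 10 for a single gene. Most of the 4 were therefore below the minimum there and could enter the test only with the help of KO libraries. Of the sebaceous gland markers, Mgst1 (also in the list of thiol enzymes), Awat2 and Far2 were higher and Scd1 lower, with a sum of 61.2, 64.7 and 144 CPM in the WT libraries (144 in replicate 2) and 72.5 to 90.5 CPM in KO, and Awat1 had at most 1 count. These shifts ran with every antioxidant gene that changed, and their part in the results was not tested. In bulk RNA, fewer cells of a type and less RNA per cell cannot be told apart. The p-values measure the spread between these samples.

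The regulators came first. Nfe2l2 (gene 18024, GRCm38 chr2:75675513-75704663) had 2090, 2098 and 2039 counts in WT against 9267, 11085 and 9443 in KO. The KO libraries all lay far above the WT libraries, and within each genotype the values were close together. The level went from 96.6 ± 0.936 CPM to 498 ± 49.7 CPM (mean ± SD, n = 3 per group throughout), 5.16-fold, with a log2 fold change of 2.37 (SE 0.106, edgeR adjusted p = 1.28e-06). Keap1, the adaptor that hands Nrf2 to a ubiquitin ligase (gene 50868, chr9:21229730-21239332), had 1641, 1641 and 1591 counts in WT against 1215, 1026 and 1045 in KO. All KO values were below all WT values, and the KO level was 72.8% of WT (log2 fold change -0.46, SE 0.095, edgeR adjusted p = 0.00317). The transcript of the factor was therefore higher and that of its adaptor lower, with the calls for both kept in 16 of 16 alternative fits. Nrf2 is controlled mainly as a protein, which these data do not measure.

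Other genes that act on Nrf2 moved in both directions. Of 13 tested (Cul3, Rbx1, Btrc, Gsk3b, Sqstm1, Bach1, Bach2, Maff, Mafg, Mafk, Nfe2l1, Nfe2l3 and Dpp3), 3 were higher and 4 lower, with a median log2 fold change of 0.05. Only Btrc, a receptor subunit of the other ubiquitin ligase that acts on Nrf2, passed the study threshold. It had 677, 549 and 562 counts in WT against 206, 201 and 195 in KO (log2 fold change -1.46, SE 0.116, edgeR adjusted p = 1.88e-05).

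Promoter sequences of the genes, from RefSeq on GRCm38, were searched on both strands for the core of the antioxidant response element, TGACNNNGC, in the window from 250 bases before to 50 bases after the transcription start. A window was found for 45 of the 53 genes and 9 held the core (20%), against 3781 of 27025 genes (14%). By outcome, it was present in 7 of 23 higher genes, 1 of 8 lower genes, 1 of 10 that did not pass and 0 of 4 that were not tested. No window was found for Hmox1, Gclc, Gsta4, Gstt2, Gsr, Prdx6, Prdx6b and Sod3, so these genes were not searched. The 9 stretches shown are all the matches to this letter pattern in the windows searched. Each is read 5′ to 3′ on the strand that carries the core, with the core in capitals.
Nfe2l2, chr2:75704885-75704913, minus strand: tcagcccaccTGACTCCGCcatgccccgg
Gclm, chr3:122245413-122245441, minus strand: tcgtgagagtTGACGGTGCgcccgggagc
Gstm5, chr3:107895802-107895830, plus strand: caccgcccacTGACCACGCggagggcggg
Gstm7, chr3:107931725-107931753, minus strand: tctgaagaccTGACAAAGCgaagccaatc
Prdx1, chr4:116685456-116685484, minus strand: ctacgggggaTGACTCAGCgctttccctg
Srxn1, chr2:152105542-152105570, minus strand: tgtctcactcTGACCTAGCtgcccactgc
Sod1, chr16:90220696-90220724, minus strand: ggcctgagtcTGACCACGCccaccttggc
Gsta3, chr1:21240454-21240482, plus strand: aactcaggcaTGACATTGCatttttcttc
Txnrd1, chr10:82859104-82859132, minus strand: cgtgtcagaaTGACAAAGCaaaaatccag
The first 7 belong to genes that were higher in KO, Gsta3 was lower, and Txnrd1 did not pass the test. The Txnrd1 window, chr10:82858956-82859255, surrounds a start inside the gene, whose RefSeq span begins at 82833951. The letters TGACAAAGC occurred in the windows of both Gstm7 and Txnrd1, and TGACCACGC in those of both Gstm5 and Sod1. The Prdx1 core, TGACTCAGC, also holds TGACTCA, the letters of an AP-1 site. Gpx2, Gstm6, Gsta1 and Gstm1, which had some of the largest changes, held no such core in this window.

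Because Rela encodes a subunit of NF-κB, the same windows were searched for the NF-κB consensus. It was found in 6 of 45 genes (13.3%), against 9.55% of the 27025 genes: Cat, Gpx1, Gpx3, Gstt4, Prdx1 and Sod2. This was 2 of the 23 higher genes and 0 of the 8 lower genes. The matches in the 4 genes that were tested are shown with the consensus match in capitals.
Sod2, chr17:13007746-13007775, plus strand: cggggcggacGGGGTTCCCCgaggcggggc
Prdx1, chr4:116685419-116685448, minus strand: ctggagtggaGGGGGTCTCCagggggaaac
Gpx1, chr9:108339015-108339044, minus strand: tgcttaggcgGGGATCTTCCagctctgtct
Cat, chr2:103485250-103485279, minus strand: gtccacctccGGGAGCCCCCacttctcgcc
Prdx1 and Cat were higher in KO, and Gpx1 and Sod2 did not pass the test. Prdx1 was the one gene with both patterns. A match of letters shows neither binding nor use of a site.

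Among the enzymes that make and recycle glutathione, 2 of 4 were higher, both of them subunits of glutamate-cysteine ligase, the rate-limiting enzyme of synthesis. Gclm, its modifier subunit (gene 14630, chr3:122245487-122267215), had 420, 353 and 447 counts in WT against 1675, 1191 and 2124 in KO. The groups were well apart although the KO libraries were spread, and the level was 4.41-fold higher (18.9 ± 2.38 against 83.4 ± 23.1 CPM, log2 fold change 2.14, SE 0.206, edgeR adjusted p = 5.09e-05). The catalytic subunit Gclc rose 1.98-fold, from 55.7 ± 4.54 to 110 ± 13.8 CPM (log2 fold change 0.98, SE 0.115, edgeR adjusted p = 1.41e-04). Glutathione synthetase, Gss, which adds glycine and had the highest level per length among these genes, had 1285, 1582 and 1664 counts in WT against 1411, 1712 and 1589 in KO. These overlapped (log2 fold change 0.16, SE 0.126, edgeR adjusted p = 0.29). Glutathione reductase, Gsr, which regenerates the reduced form, also overlapped, at 30.5 ± 3.02 and 31.9 ± 3.52 CPM (log2 fold change 0.06, SE 0.120, edgeR adjusted p = 0.661), and the sign of its small difference turned when library totals replaced the TMM factors.

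The supply and turnover of glutathione were read from 16 further tested genes, of which 10 were higher and 4 lower (median log2 fold change 0.81). Slc7a11, the cystine importer that feeds glutathione synthesis, stood far apart, with 6.9, 21.6 and 14.5 counts in WT against 1025, 1308 and 897 in KO (log2 fold change 6.33, SE 0.300, edgeR adjusted p = 1.55e-06). Its counts were not whole numbers, so some reads were shared with another gene. With so few WT counts, below the count minimum in WT replicate 1, the size of its rise was not firm. The log2 fold change ran from 2.62 to 6.78 over the alternative fits. Another 5 passed the study threshold upward: Ggt6, of the gamma-glutamyltransferase family (1.98), Abcc1, an exporter of glutathione conjugates (1.87), Esd, which releases glutathione from its formaldehyde adduct (1.76), and the glyoxalases Glo1 (1.54) and Hagh (1.33), the values being log2 fold changes. Ggt7 fell by 1.99 on the same scale. Cth and Cbs, which make cysteine from methionine, were both lower, with log2 fold changes of -0.67 (SE 0.166, edgeR adjusted p = 0.00758) and -0.50 (SE 0.169, edgeR adjusted p = 0.0293).

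The glutathione S-transferases were the largest group, with 22 genes and 20 tested, and they divided by class. In KO 10 were higher, 8 lower and 2 did not pass. All 6 tested mu-class genes (Gstm1, Gstm2, Gstm4, Gstm5, Gstm6 and Gstm7) and all 3 pi-class genes (Gstp1, Gstp2 and Gstp3) were higher. As given above, Gstm6, Gstm7 and Gstp3 could enter the test only by being higher in KO, so their direction adds nothing to this division. All 3 tested theta-class genes (Gstt1, Gstt2 and Gstt3) were lower, as were kappa-class Gstk1 and zeta-class Gstz1. The alpha class was split, with Gsta1 higher and Gsta2, Gsta3 and Gsta4 lower. For 11 of the 22, Gstz1 among them, the counts were not whole numbers, which means that some reads were divided between genes. Where those genes are of the same class, the split within it is uncertain.

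Gstm1 (gene 14862, chr3:108012250-108017973) had 666, 559 and 1020 counts in WT against 6688, 5361 and 5657 in KO. It was 8.48-fold higher without overlap (log2 fold change 3.09, SE 0.230, edgeR adjusted p = 1.37e-05). Gstm5 (gene 14866, chr3:107895854-107898685) had 176, 209 and 181 counts in WT against 577, 679 and 418 in KO (log2 fold change 1.67, SE 0.187, edgeR adjusted p = 1.11e-04). Gstm6 was nearly silent in WT, at 6, 10 and 9 counts, and had 97, 96 and 79.7 counts in KO, 11.8-fold higher (log2 fold change 3.54, SE 0.275, edgeR adjusted p = 1.7e-05). The remaining mu-class genes were higher without reaching the study threshold. Gstm7 rose 3.49-fold from 0.341 ± 0.113 to 1.19 ± 0.379 CPM (edgeR adjusted p = 0.00492), Gstm2 from 30.3 ± 5.25 to 45.1 ± 7.63 CPM (edgeR adjusted p = 0.0127) and Gstm4 from 8.15 ± 0.821 to 11.8 ± 1.04 CPM (edgeR adjusted p = 0.00854). The calls for Gstm2 and Gstm4 were lost with the length correction (log2 fold changes 0.11 and 0.34).

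The pi-class genes lie side by side, and the counts of Gstp1 and Gstp2 were not whole numbers, whereas those of Gstp3 were. Gstp1 (gene 14870, chr19:4035411-4037912) had 1510, 1714 and 1492 counts in WT against 5904, 7183 and 5127 in KO, 4.17-fold higher (log2 fold change 2.06, SE 0.140, edgeR adjusted p = 8.56e-06). Gstp2 had 87.1, 96.9 and 131.6 counts in WT against 507.6, 645.4 and 421.7 in KO (log2 fold change 2.42, SE 0.216, edgeR adjusted p = 3.47e-05). Both rose without overlap between genotypes. Gstp3 was at 0, 13 and 1 counts in WT against 31, 32 and 33 in KO (log2 fold change 2.85, SE 0.767, edgeR adjusted p = 0.0112), and the log2 fold change became 5.78 without WT replicate 2, the library holding the 13 counts.

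Of the alpha class, Gsta1 (gene 14857, chr9:78230669-78242683) had 267.6, 334.9 and 407.8 counts in WT against 3082, 3078.6 and 2406.8 in KO, 9.12-fold higher (log2 fold change 3.19, SE 0.183, edgeR adjusted p = 3.56e-06). Gsta3 (gene 14859, chr1:21240565-21265575) went the other way, with 3228, 2672 and 3398 counts in WT against 1018, 917 and 1525 in KO, 40.1% of WT (log2 fold change -1.32, SE 0.189, edgeR adjusted p = 4.32e-04). Per length, Gsta3 was at 232 ± 27.2 TPM and Gsta1 at 41.2 ± 7.61 TPM in WT, and in KO they were at 73.1 ± 19.1 and 299 ± 45.8 TPM, so that their order was exchanged. Gsta2 was at 102 ± 22.3 CPM in WT and 71.9 ± 2.59 CPM in KO (log2 fold change -0.50, SE 0.152, edgeR adjusted p = 0.02). Gsta4, which conjugates the lipid peroxidation product hydroxynonenal, was only just called (log2 fold change -0.46, SE 0.174, edgeR adjusted p = 0.0481) and its groups overlapped. The call for Gsta2 failed without WT replicate 1, without WT replicate 3 and without KO replicate 3, and that for Gsta4 failed in 7 of 16 alternative fits.

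The theta-class genes fell together. Gstt2 (gene 14872, chr10:75831842-75837419) had 205, 200 and 208 counts in WT against 28, 54 and 40 in KO, 21.4% of WT (log2 fold change -2.22, SE 0.226, edgeR adjusted p = 6.93e-05). Gstt1 had 67, 68 and 83 counts in WT against 17, 20 and 17 in KO (log2 fold change -1.90, SE 0.236, edgeR adjusted p = 2.01e-04). Gstt3, the most abundant of the class per length, had 1101, 951 and 1087 counts in WT against 424, 398 and 388 in KO (log2 fold change -1.27, SE 0.101, edgeR adjusted p = 1.95e-05). No KO value reached a WT value in any of them. Gstz1, an isomerase of tyrosine breakdown, fell to 63.3% of WT (edgeR adjusted p = 0.00102), and Gstk1, found in mitochondria and peroxisomes, to 76.4% (edgeR adjusted p = 0.0173), a call lost without WT replicate 1.

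Genomic neighbours were examined, since the classes sit in clusters. The mu cluster (chr3:107895854-108045179) held 6 tested genes, all higher, and the 3 other tested genes within 100000 bases of it were also higher, with a median log2 fold change of 1.13. Of the cluster's own genes, Gstm6 and Gstm7 could enter the test only by being higher in KO. Around the pi cluster (chr19:4035411-4059605), 14 other tested genes had a median of 0.06, with 4 higher and 3 lower. Around the theta cluster (chr10:75774117-75837419), 6 others had a median of 0.08, with 2 higher and 1 lower. Around the alpha cluster on chromosome 9 (chr9:78191966-78347192), which holds Gsta1, Gsta2 and Gsta4 but not Gsta3, 9 others had a median of 0.27, with 2 higher and 4 lower. Neighbours of the pi, theta and alpha clusters moved in both directions. Those of the mu cluster were all higher, but only 3 were tested. Over all genes tested, 31.8% were higher and 30.2% lower, and no test of the neighbours against these shares was made.

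Gsto1, an omega-class transferase that also reduces dehydroascorbate, dominated the set by abundance. Levels of different genes were compared in TPM, which is scaled per transcript length. Gsto1 (gene 14873, chr19:47854973-47864790) had 315069, 295579 and 448308 counts in WT against 207981, 215097 and 308535 in KO. It ranked 2 among all genes in both genotypes and made up 67.1% ± 2.99 of the summed TPM of the set in WT and 58.5% ± 4.02 in KO. In CPM its groups overlapped, and the test did not pass (log2 fold change -0.43, SE 0.220, edgeR adjusted p = 0.121). It passed with the length correction (log2 fold change -0.78, adjusted p = 0.0111) and with a replicate block (adjusted p = 0.0309). Gsta4 followed with 21.0% ± 1.99 and 17.8% ± 0.943 of the summed TPM of the set, at rank 5 in WT and rank 16 in KO. All other genes together summed to 5449 ± 275 TPM in WT and 7305 ± 588 TPM in KO, or 11.9% and 23.8% of the set. These sums, shares and ranks were not tested between the genotypes, and TPM and CPM do not scale alike between them. Gsto2, next to Gsto1, stayed low at 0.839 ± 0.18 and 1.19 ± 0.186 CPM (log2 fold change 0.50, SE 0.293, edgeR adjusted p = 0.169).

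**Figure D2:**
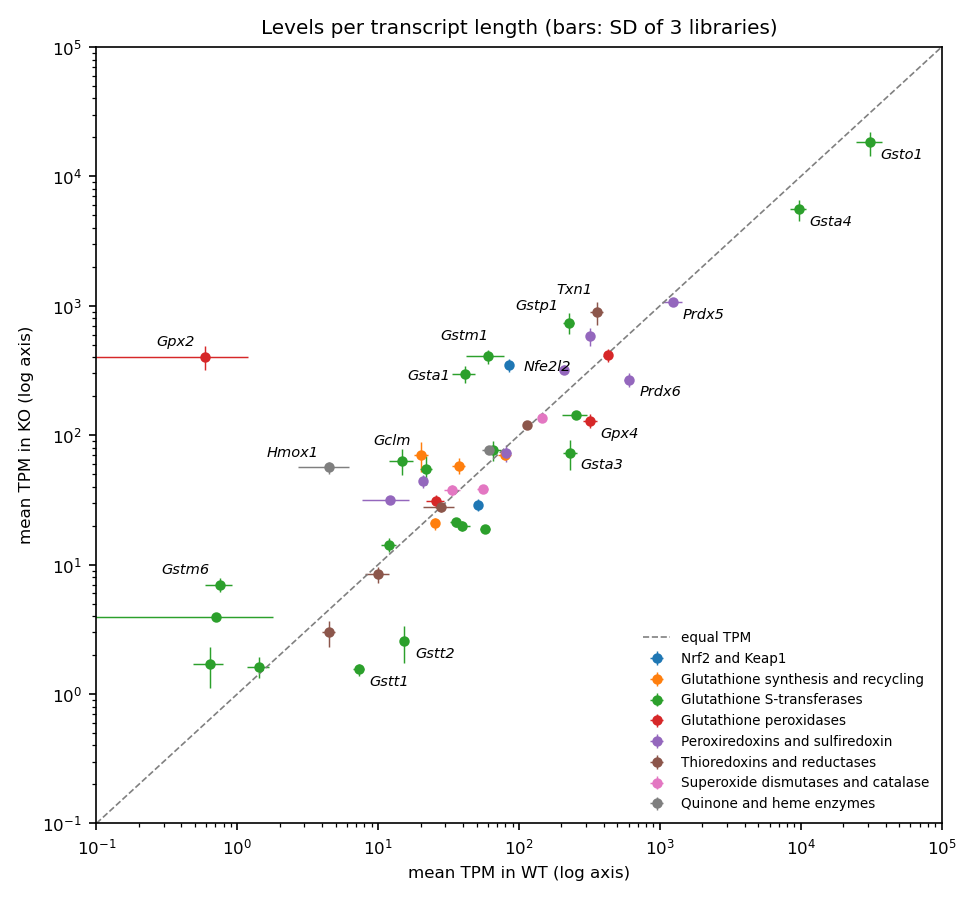
Mean TPM in KO (y axis, log scale) against mean TPM in WT (x axis, log scale) for the tested genes, coloured by role, with SD of 3 libraries as bars (those of Gpx2 and Gstp3 run off the left edge) and a dashed line at equal TPM. Gsto1 and Gsta4 stand alone at the top right, and Gpx2 moves from 0.59 TPM to 404 TPM.

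Glutathione peroxidases ranged from -0.97 to 9.73 in log2 fold change. Gpx2 (gene 14776, chr12:76792335-76795554), the form best known from the gut lining, had 2, 13 and 3 counts in WT against 4985, 5663 and 3796 in KO. It went from near absence to a level per length close to that of Gpx1, the widely expressed form: 404 ± 85.3 TPM for Gpx2 and 413 ± 46.5 TPM for Gpx1 in KO, against 0.59 ± 0.599 and 430 ± 9.14 TPM in WT. The log2 fold change of Gpx2 was 9.73 (SE 0.378, edgeR adjusted p = 6.05e-07), the largest of the set. With so few WT counts its size was not firm, at 10.96 without WT replicate 2 and 7.45 on the log2(FPKM + 1) scale. Gpx1 itself had 4210, 4166 and 4485 counts in WT against 4335, 4642 and 5561 in KO, and in CPM, 200 ± 11 against 243 ± 30.1, it narrowly missed the threshold (log2 fold change 0.28, SE 0.111, edgeR adjusted p = 0.053). It passed in 5 of 16 alternative fits, and with the length correction its sign turned (-0.20). In TPM, as given above, its KO mean was slightly below its WT mean.

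Gpx4, which reduces peroxides within membrane lipids, was lower. It had 3181, 2561 and 3040 counts in WT against 1188, 1389 and 1576 in KO. The KO level was 51.0% of WT with no overlap (log2 fold change -0.97, SE 0.125, edgeR adjusted p = 2.45e-04). Gpx8, of the endoplasmic reticulum, rose from 11.2 ± 2.01 to 17.2 ± 2.13 CPM (log2 fold change 0.63, SE 0.163, edgeR adjusted p = 0.00967), but not with the length correction (0.09, adjusted p = 0.592). Gpx3, with at most 8 counts in a library, and Gpx7, with at most 9, were not tested.

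Peroxiredoxins use a reactive cysteine to reduce peroxides, and sulfiredoxin (Srxn1) repairs them after over-oxidation. Of the 7 genes tested in this group, 4 were higher, 1 lower and 2 did not pass. Prdx1 (gene 18477, chr4:116685599-116700000), a cytosolic form, had 4064, 4691 and 4362 counts in WT against 8029, 10885 and 9046 in KO (log2 fold change 1.2, SE 0.131, edgeR adjusted p = 9.88e-05). Prdx4, of the secretory pathway, had 73, 157 and 108 counts in WT against 318, 332 and 371 in KO (log2 fold change 1.70, SE 0.245, edgeR adjusted p = 4.46e-04). Srxn1 had 553, 592 and 568 counts in WT against 1572, 1384 and 1287 in KO (log2 fold change 1.42, SE 0.106, edgeR adjusted p = 1.37e-05). In each of these genes the KO values lay above all WT values. Prdx2, the other cytosolic form and abundant in red cells, went from 135 ± 7.38 to 264 ± 19.1 CPM (log2 fold change 0.97, SE 0.096, edgeR adjusted p = 5.98e-05).

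The single fall was in Prdx6, which works with glutathione rather than thioredoxin, from 649 ± 26.8 to 367 ± 42.2 CPM (log2 fold change -0.82, SE 0.112, edgeR adjusted p = 3.42e-04). Its counts were not whole, and reads may be shared with the related Prdx6b. Prdx5, the most abundant of the group per length, had 7412, 6813 and 9585 counts in WT against 7775, 8161 and 8299 in KO. These overlapped (log2 fold change 0.13, SE 0.141, edgeR adjusted p = 0.441), although with the length correction the gene was called lower (-0.70, adjusted p = 0.00211). Prdx3, of mitochondria, was at 52.8 ± 5.68 and 60.0 ± 8.88 CPM (log2 fold change 0.19, SE 0.133, edgeR adjusted p = 0.25).

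In the thioredoxin system, 2 of 5 genes were higher and none lower. Txn1 (gene 22166, chr4:57943373-57956411), the cytosolic thioredoxin, had 3065, 3680 and 3991 counts in WT against 8918, 12789 and 9729 in KO. It was 3.15-fold higher with no overlap (log2 fold change 1.66, SE 0.167, edgeR adjusted p = 6.38e-05). Txn2, its mitochondrial counterpart, moved from 65.2 ± 2.66 to 86.2 ± 5.29 CPM (log2 fold change 0.40, SE 0.086, edgeR adjusted p = 0.00359), a call that the length correction ended. None of the 3 reductases that recharge thioredoxin passed. Txnrd1, of the cytosol, had a log2 fold change of 0.34 (SE 0.192, edgeR adjusted p = 0.16), mitochondrial Txnrd2 of -0.26 (SE 0.213, adjusted p = 0.318) and Txnrd3 of 0.08 (SE 0.176, adjusted p = 0.708), the last with a sign that turned when totals replaced TMM factors. Txnrd1 was widely spread in WT, at 681, 920 and 1189 counts, and passed without WT replicate 3 and with a replicate block.

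Superoxide dismutases turn superoxide into hydrogen peroxide, which catalase breaks down, and their log2 fold changes stayed between -0.20 and 0.50. Sod1 (gene 20655, chr16:90220762-90226333), of the cytosol, had 896, 857 and 878 counts in WT against 933, 964 and 1007 in KO. The shift was small but without overlap (log2 fold change 0.25, SE 0.081, edgeR adjusted p = 0.0253). As the shortest of the tested genes, at 623 bases, it was called lower with the length correction (-0.63, adjusted p = 4.35e-04), so its direction was not settled. Sod2, of mitochondria, was at 96.6 ± 8.99 and 84.2 ± 3.73 CPM (log2 fold change -0.20, SE 0.095, edgeR adjusted p = 0.103). Cat rose from 38.8 ± 3.81 to 54.8 ± 4.82 CPM (log2 fold change 0.50, SE 0.109, edgeR adjusted p = 0.00417). Sod3, the extracellular form, had 1, 1 and 0 counts in WT against 2, 6 and 7 in KO and was not tested. Red cells are rich in Prdx2, Gpx1 and Cat, and the summed level of 6 red cell markers was 3.77 to 6.15 CPM in WT and 6.87 to 9.41 CPM in KO, with Slc4a1 at 0 or 1 counts in every library. Most of the WT sum was Alas2, which did not pass (4.47 ± 1.10 CPM in WT, 3.71 ± 0.541 CPM in KO). The globins were higher or appeared in KO: Hba-a1 went from 0.312 ± 0.148 to 1.74 ± 0.969 CPM (edgeR adjusted p = 0.00459), and Hbb-bs had 0 counts in every WT library and 28.1, 22 and 24.7 counts in the KO libraries. Hba-a2 was also at 0 in WT and at 0.953 ± 0.474 CPM in KO but was not tested. The part of red cells in the rises of Prdx2 and Cat was not tested.

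**Figure D3:**
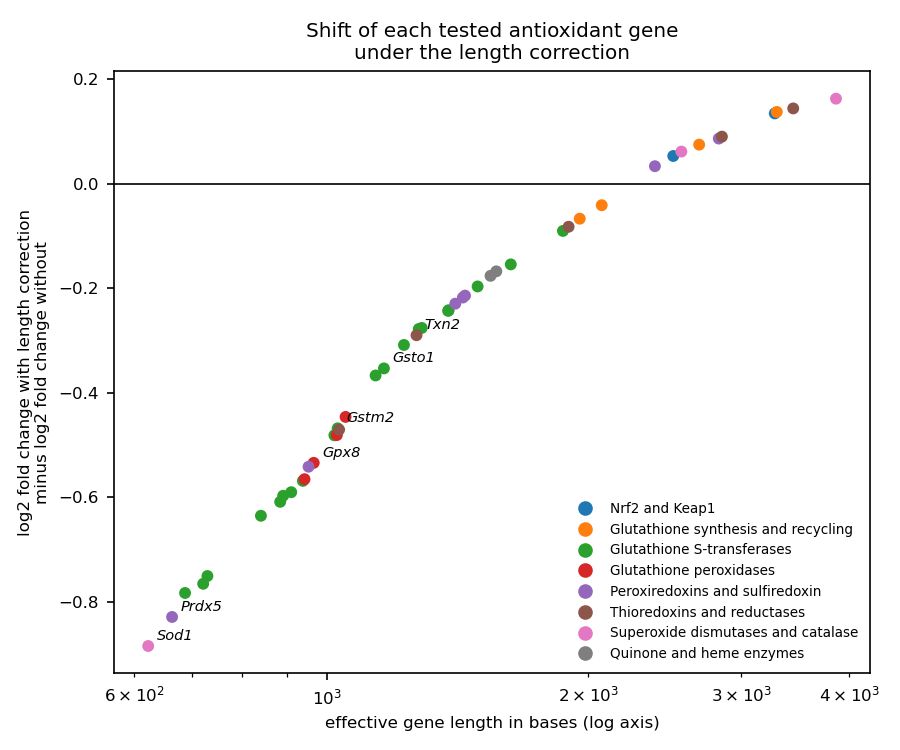
Change in the log2 fold change of each tested gene when gene length was corrected for (y axis) against its effective length in bases (x axis, log scale), coloured by role. The shift runs from below -0.8 for Sod1 and Prdx5 to slightly above 0 for the longest genes.

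Both enzymes of quinone and heme detoxification were higher. Hmox1 (gene 15368, chr8:75093618-75100593), which breaks down heme, had 56, 98 and 49 counts in WT against 1112, 903 and 1002 in KO. It was 16.0-fold higher without overlap (log2 fold change 4.0, SE 0.238, edgeR adjusted p = 4.25e-06). Nqo1 (gene 18104, chr8:107388225-107403205), a quinone reductase and a common readout of Nrf2, had 868, 827 and 1040 counts in WT against 1368, 1371 and 1283 in KO, only 1.58-fold higher (log2 fold change 0.66, SE 0.113, edgeR adjusted p = 0.00108). Macrophages also express Hmox1, and the summed level of 6 leukocyte markers was 9.52 to 12.5 CPM in WT and 157 to 263 CPM in KO, with all 5 tested markers higher and Adgre1 at 31, 33 and 42 counts in KO. Their part in the rise of Hmox1 was not tested. Within WT, replicate 2 had the highest counts of Hmox1, Gpx2, Gstp3 and Prdx4, and it held 160 counts of S100a8, a gene abundant in neutrophils, against 0 and 1 in the other WT libraries.

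**Figure D4:**
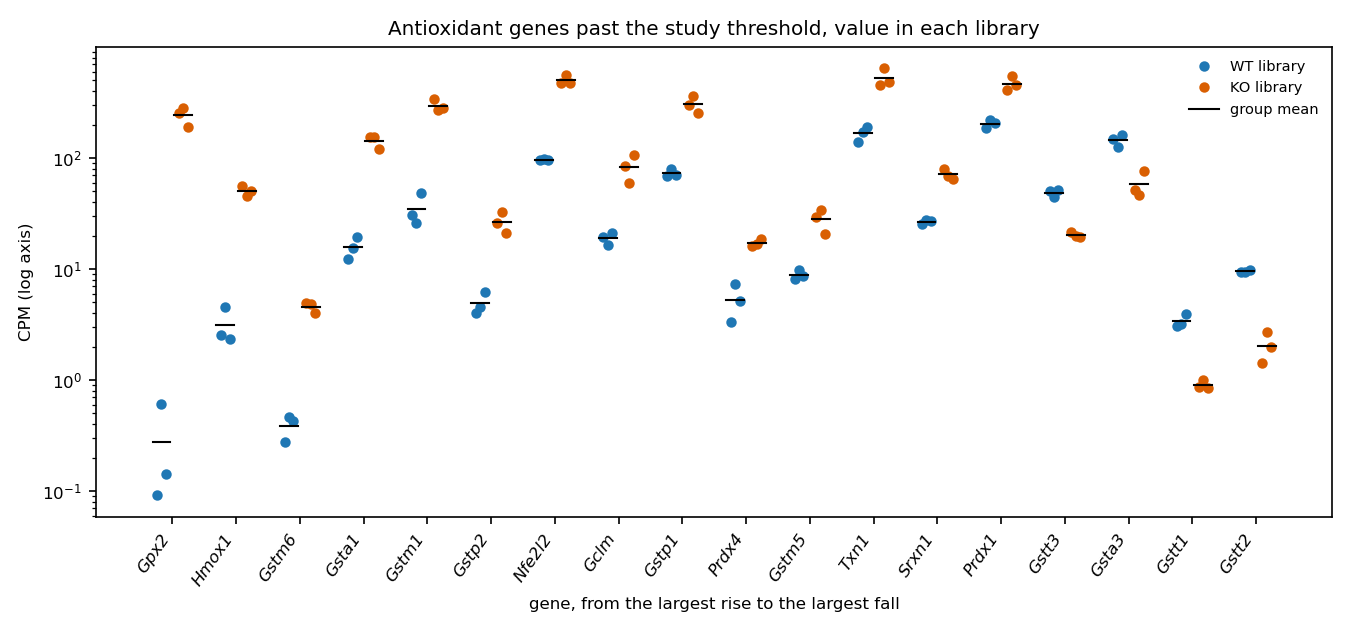
CPM in each library (y axis, log scale) of the genes past the study threshold (x axis, from the largest rise to the largest fall), with WT libraries in blue, KO libraries in orange and group means as lines. The genotypes do not overlap for any of the 18 genes, and the WT values of Gpx2 lie below 1 CPM.

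Other Nrf2 targets, thiol enzymes and genes listed under NADPH supply were then read from fixed lists, some genes being in more than 1. For comparison with the counts of every list, 31.8% of all genes tested were higher and 30.2% lower. Of 16 other Nrf2 targets tested, 9 were higher and 3 lower (median log2 fold change 0.52). Besides Slc7a11 and Abcc1, Me1 (4.23), Cbr3 (2.26) and Pir (1.29) passed the study threshold upward. Not all moved that way: Osgin1 was slightly lower (-0.24, edgeR adjusted p = 0.0266), Ephx1 fell by 0.73 on the log2 scale, and Fth1, the ferritin heavy chain, did not pass (-0.06, adjusted p = 0.67). Of 15 other thiol enzymes, 7 were higher and 3 lower (median 0.19). Glrx, the cytosolic glutaredoxin that removes glutathione from proteins, rose most, from 398, 374 and 395 counts in WT to 9664, 10620 and 7690 counts in KO (log2 fold change 4.69, SE 0.151, edgeR adjusted p = 2.97e-07). The microsomal transferases Mgst1 (3.95) and Mgst2 (3.30) followed, but Mgst3 overlapped and did not pass (-0.40, SE 0.177, edgeR adjusted p = 0.079). In WT, Mgst3 was at 311 TPM, against 7.69 TPM for Mgst1 and 8.22 TPM for Mgst2. Hpgds, the sigma-class transferase that makes prostaglandin D, fell by 1.26.

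NADPH powers the reductases of both systems. Of 10 genes listed under its supply, not all of which make NADPH themselves (Tkt, Taldo1 and Pgls do not), 5 were higher and 3 lower (median log2 fold change 0.26). Me1, the cytosolic malic enzyme, had 164, 196 and 216 counts in WT against 3804, 3252 and 3010 in KO. Idh1 rose by 1.26 on the log2 scale. G6pdx, the first enzyme of the pentose phosphate pathway, overlapped and did not pass (0.27, edgeR adjusted p = 0.105). Tkt, a pentose phosphate enzyme that the cornea stores in very large amounts, had 167235, 152181 and 141443 counts in WT against 15983, 17463 and 18658 in KO (log2 fold change -3.04, SE 0.129, edgeR adjusted p = 1.01e-06).

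Genes whose products generate oxidants were measured alongside. Of 9 tested, 5 were higher, all of them at the study threshold, and 2 lower (median log2 fold change 1.48). Among the higher genes, Cyba and Cybb were below the count minimum in every WT library. Both could enter the test only by being higher in KO, which also bears on the median. Duox1, an epithelial hydrogen peroxide generator, had 346.4, 273.8 and 278.7 counts in WT against 3323.5, 2374 and 3552 in KO (log2 fold change 3.47, SE 0.175, edgeR adjusted p = 2.03e-06). Its maturation factor Duoxa1 rose by 2.76 and Xdh by 1.48, while Duox2 fell by 1.41. Cybb (8, 4 and 10 counts in WT, 61, 58 and 78 in KO) and Cyba encode the membrane subunits of the phagocyte oxidase and were higher beside the leukocyte markers given above. Nox4 fell from 148, 101 and 97 counts to 7, 10 and 10 counts (log2 fold change -3.55, SE 0.288, edgeR adjusted p = 2.15e-05).

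The 6 genes without enough counts to test were Gstm3, Gstt4, Gpx3, Gpx7, Prdx6b and Sod3. Gstm3 had 3 counts in a single KO library and 0 in the other 5 libraries, Gstt4 at most 2 counts in any library, and Prdx6b 1 count in each WT library and 0 in each KO library. Differences in them were not detectable at this depth.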

How the data were processed

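RNA of corneal epithelium was measured in 3 WT and 3 KO libraries. According to the study's methods and the submitters' processing notes, the authors depleted ribosomal RNA, sequenced short single-end reads on a BGI instrument (the labels name an Illumina kit), filtered them, aligned them with Bowtie2 2.2.5 and estimated levels with RSEM 1.2.12. The deposited table holds, for each gene and library, the estimated count, which need not be whole because reads shared between genes are divided, and the authors' FPKM and TPM, both scaled by effective length. The notes name an older genome build, but the table's chromosome accessions are those of GRCm38. Several of the table's gene spans were wider than RefSeq's (12 of the 53 genes differed by over 1000 bases) and 6 strands differed, so RefSeq positions on GRCm38 are given. Whether counting used strand is not given in the sources used here. Columns with the authors' own fold changes and p-values were not used. No per-library column lacked a labelled sample.

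The rounded estimated counts entered the quasi-likelihood test of edgeR 4.0.16 under R 4.3.3 (TMM factors, filterByExpr, glmQLFit and glmQLFTest, genotype only, Benjamini-Hochberg adjustment over 13305 genes). Each standard error is the size of the log2 fold change over the root of its F statistic. CPM values were scaled by TMM factors, 1.01 to 1.05 in WT and 0.952 to 0.990 in KO. TPM was used to compare levels between genes and for the shares, ranks and sums of the set, and no test was made on it. TPM and CPM do not scale alike between the genotypes. Gpx1 was at 430 TPM in WT and 413 TPM in KO, but at 200 CPM in WT and 243 CPM in KO. Totals of 20158404 to 20880347 counts set the precision, and counting error does not include PCR copies. Effective length was derived from counts and FPKM. Alternatives were DESeq2 1.42.0, RLE factors, totals only, TMM without the 20 highest genes, no filter, a mean count of at least 50, limma 3.58.1 on log2(FPKM + 1) and log2(FPKM + 0.1), the replicate number as a block, a loess correction for length, and leaving out each library. Same-numbered libraries of the genotypes did not deviate together (r of 0.03, -0.01 and 0.06), so the numbers were not taken as pairs.

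The genes and lists were chosen with earlier results of these data known. Per-library counts are given for genes at the study threshold, for the gene of highest mean TPM in each role and for Nfe2l2 and Keap1, and values of listed pathway genes mainly for those at the study threshold. Other per-library counts, and pathway genes outside that rule, were chosen after their values were seen. Promoter windows came from RefSeq. Tables and plots used Python 3.11.15, pandas 2.3.3, numpy 2.4.6 and matplotlib 3.10.9. Cdh5 and Elovl3 of the marker lists were not analysed here.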

Additional observations from a re-analysis of the deposited data

How the results depend on the processing

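Over 747 fits of single genes under the 16 alternatives, 698 kept direction and call, 21 lost the call, 14 gained it and 14 changed sign, and 31 of the 47 tested genes kept both in every alternative. The number of lower genes at the study threshold, 4 in the reported fit, was 7 with the length correction and 2 to 5 when single libraries were left out (2 without WT replicate 1, without WT replicate 3 or without KO replicate 1). Higher genes numbered 20 with the length correction and 27 with the replicate block, which pairs libraries by number alone and lost no call. The length correction turned Gpx1 to -0.20, Prdx3 to -0.030, Prdx5 to -0.70 and Sod1 to -0.63 and shifted the median of the set by -0.28 (all genes 0.09). It left the shortest genes of the table with a median of -0.40 and the longest at 0.07, so it moved short genes past 0. Gsr was -0.028 with library totals, -0.033 on log2(FPKM + 1), -0.036 on log2(FPKM + 0.1) and -0.0099 to 0.15 with single libraries left out. Txnrd3 was -0.0092, -0.0053 and -0.0048 under the same settings in that order and -0.062 to 0.23 with single libraries left out. Library totals shifted all genes by -0.09. Only the length correction ended the calls of Gstm2, Gstm4, Gpx8 and Txn2. Calls lost in other settings were those of Gsta4, Gsta2, Gstk1 and Sod1, and the cause was not tested beyond what each setting changes. A mean count of at least 50 left out the lowest genes.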
